A study of Mus musculus with 150 samples.

Results

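Pcm1, Asah1, Frg1 and Fat1 are 4 genes of mouse chromosome 8 that lie on either side of the Rex1 (Zfp42) region, in which deletions were made in mouse embryonic stem cells (mESC). They were chosen by name and position, and their replication timing was read as the mean score over the positions inside each annotated gene, in all 12 deposited profiles. They are 4 of 953 protein-coding genes of the chromosome that had a score. Pcm1 encodes a scaffold protein of centriolar satellites, the granules that surround the centrosome. Asah1 encodes acid ceramidase, the lysosomal enzyme that splits ceramide into sphingosine and a fatty acid. Frg1 encodes a nuclear and nucleolar protein that binds RNA and actin, named after the chromosome region linked to human facioscapulohumeral muscular dystrophy. Fat1 encodes a very large atypical cadherin of the plasma membrane that takes part in cell polarity and adhesion.

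DNA is copied in a set order during S phase, in domains that can span many genes. Early replication goes with open, transcribed chromatin, and late replication with compact chromatin and the nuclear periphery. Repli-seq reads this order from newly made DNA: cells are pulsed with the nucleotide analogue BrdU, sorted into an early and a late S-phase fraction, and the BrdU-labelled DNA of each fraction is sequenced. In cells from a cross of mouse strains, sequence differences let the paternal and maternal copies of a chromosome be read apart, so that the 2 copies can be compared within the same nuclei.

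The 6 clones were cas/129 hybrid mESC grown in DMEM with 2i and LIF and labelled with BrdU for 2 h. The RexTrim clones D3 and D8 were labelled as carrying both deletions, the Rex1 clones D1 and E3 the deletion at 43302260 to 43332339, and the Trim clones D9 and E9 the deletion at 43176771 to 43181949 (mm10). Each clone had a profile for the svim allele, named after the 129 parent, and for the cast allele, giving 12 profiles from 12 libraries of the 150 in the series. No profile of chromosome 8 from unedited cells was analysed here, so each difference sets allele against allele or deletion against deletion. A clone is a line grown from 1 cell, and each group rests on 2 of them. The labels do not say which allele was edited. All 6 positions inside the larger deletion were blank on the svim allele of the RexTrim and Rex1 clones and had values in every other profile. The 1 position inside the smaller deletion was blank on the svim allele of the RexTrim and Trim clones, and also on the cast allele of RexTrim D8.

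The score is the authors' early-against-late measure, scaled so that its interquartile range over chromosome 8 was 4.6 in every profile, and the sources used here do not give its log base. Scores ran from -4.21 to 4.77, and a higher score was read as earlier replication. Of the genes taken as controls, Calr, a highly used chaperone gene, averaged 1.78 ± 0.57 on svim and 1.82 ± 0.38 on cast, against -2.93 ± 0.31 and -2.93 ± 0.32 for the large neural gene Csmd1 (SD, n = 6 clones). Dlc1, listed as a late gene, scored 1.46 on svim and 1.30 on cast and did not behave as one. The profiles had values at 25223 to 25240 positions, 5 kb apart, and read depth is unknown. The scaling left the profiles with different centres: the median over all positions ran from -1.12 on svim and -1.24 on cast in Rex1 D1 to 0.03 on svim and -0.05 on cast in RexTrim D8.

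Pcm1 lies at 41239484 to 41334088, Asah1 at 41340646 to 41397644 and Frg1 at 41389181 to 41417138 on chromosome 8 (mm10), to the left of the deletions. They hold 19, 11 and 6 scored positions, 2 of which Asah1 and Frg1 share because the genes overlap. Fat1 lies to the right, at 44933100 to 45052257, and holds 24 positions. The gap to the nearest deletion was 1.84 Mb for Pcm1, 1.78 Mb for Asah1, 1.76 Mb for Frg1 and 1.60 Mb for Fat1. No position in the 4 genes was blank in any profile.

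The RefSeq promoter table (GRCm38.p6) held 1 of the 4 genes, Fat1, whose stretch is shown. The allele difference described below grew along this gene. The 250 bases end at a start that lies 17.1 kb inside the annotated gene, at chr8:44949958-44950207 on the plus strand. They do not cover the annotated start of Fat1, so their CG count does not describe a promoter there. CpG (the letters CG, which read the same on both strands) is in capitals.
Fat1, bases before the listed start: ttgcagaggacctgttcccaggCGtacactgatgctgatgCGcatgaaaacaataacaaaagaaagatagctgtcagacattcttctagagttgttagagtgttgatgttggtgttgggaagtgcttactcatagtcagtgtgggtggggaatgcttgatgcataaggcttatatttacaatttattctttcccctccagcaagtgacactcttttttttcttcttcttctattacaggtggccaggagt
The stretch held 2 CG and a GC content of 42.0%. At least 2 CG were found in 84.0% of the 1442 promoter windows of this length on chromosome 8, and at least 1 in 93.8%. At the nearest scored position, svim averaged -0.42 and cast -1.52.

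The 3 genes on the left scored above 0 on both alleles of every clone, whereas Fat1 scored below 0 in all profiles but svim of Rex1 E3. Pcm1 scored 1.60 and 1.76 on svim of RexTrim D3 and D8, 2.66 and 2.29 in Rex1 D1 and E3, and 2.12 and 1.89 in Trim D9 and E9. On cast it scored 1.68 and 1.88 in the RexTrim clones, 2.40 and 1.98 in the Rex1 clones, and 2.82 and 1.59 in the Trim clones. The 2 alleles overlapped fully, and the earliest and the latest of the 6 cast values both came from Trim clones.

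**Figure D1:**
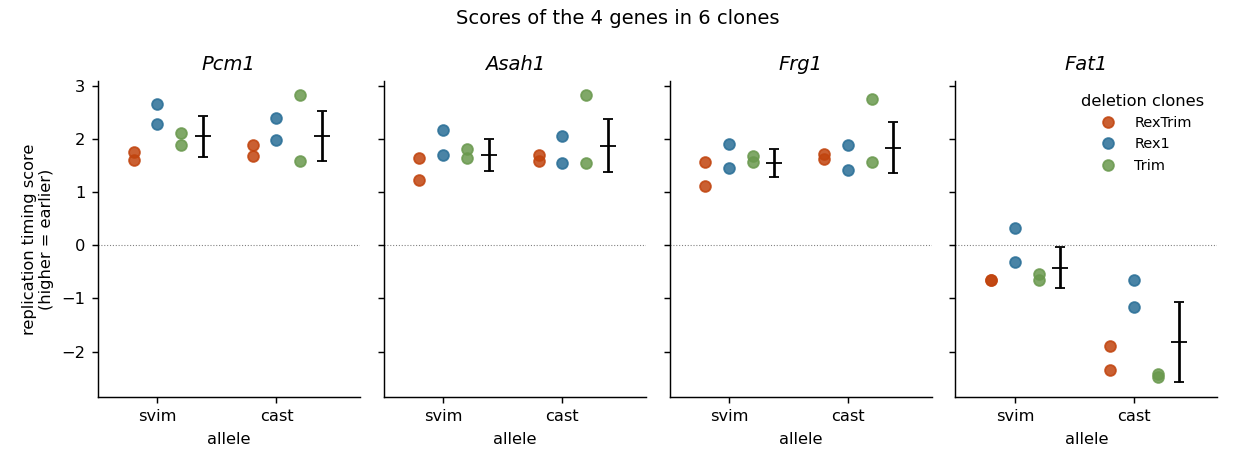
Replication timing score (y axis, higher read as earlier) of each gene on the svim and cast alleles (x axis), with 1 point per clone coloured by deletion and black bars for the mean ± SD of 6 clones. The 3 genes on the left overlap between alleles, while each Fat1 cast point lies below the svim point of its own clone and the cast mean is -1.83 against -0.42 on svim.

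Asah1 scored 1.22 and 1.64 on svim of the RexTrim clones D3 and D8, 2.17 and 1.70 in Rex1 D1 and E3, and 1.81 and 1.65 in Trim D9 and E9. On cast it scored 1.59 and 1.70 in RexTrim, 2.05 and 1.55 in Rex1, and 2.82 and 1.55 in Trim clones. Trim D9 stood above every other cast profile at this lysosomal gene. Frg1 followed the same arrangement, with 1.11 and 1.57 on svim of RexTrim D3 and D8, 1.90 and 1.46 in Rex1 D1 and E3, and 1.67 and 1.56 in Trim D9 and E9. Its cast scores were 1.63 and 1.72 in RexTrim, 1.89 and 1.42 in Rex1, and 2.76 and 1.57 in Trim clones. Again Trim D9 was the highest on cast, and the other 5 cast values lay between 1.42 and 1.89.

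Fat1 scored -0.66 and -0.66 on svim of RexTrim D3 and D8, -0.31 and 0.32 in Rex1 D1 and E3, and -0.66 and -0.55 in Trim D9 and E9. On cast it scored -2.34 and -1.90 in the RexTrim clones, -1.16 and -0.66 in the Rex1 clones, and -2.48 and -2.42 in the Trim clones. The cast value was below the svim value of its own clone in all 6, and the groups of values met only at -0.66, in cast of Rex1 E3. Against the 953 genes of its own profile, Fat1 ranked at percentile 11.4 to 17.6 on svim and 4.7 to 13.5 on cast. Pcm1 ranked at percentile 28.1 to 53.2 on svim and 32.8 to 74.4 on cast, where the highest rank was that of Trim D9. Asah1 ranked at percentile 21.7 to 36.3 on svim and 27.1 to 74.2 on cast, with a cast median of 33.2. Frg1 ranked at percentile 20.6 to 32.5 on svim and 25.5 to 72.2 on cast, with a cast median of 33.0. Both also had their highest cast ranks in Trim D9.

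In order of level, Pcm1 came before Asah1, Asah1 before Frg1 and Frg1 before Fat1 on both alleles. On svim the means were 2.05 ± 0.39, 1.70 ± 0.31, 1.54 ± 0.26 and -0.42 ± 0.39 (SD, n = 6 clones). On cast they were 2.06 ± 0.47, 1.87 ± 0.50, 1.83 ± 0.48 and -1.83 ± 0.75. The SDs of the left genes ranked no higher than percentile 74.2 of the SDs of all genes, whose medians were 0.37 on svim and 0.40 on cast, while that of Fat1 on cast was at percentile 95.6. Neighbours in the order were compared within clones by an exact two-sided sign-flip test, whose smallest possible p with 6 clones is 0.0312. Pcm1 exceeded Asah1 by 0.36 ± 0.17 on svim and 0.18 ± 0.17 on cast, and Frg1 exceeded Fat1 by 1.96 ± 0.45 on svim and 3.66 ± 1.06 on cast, each in 6 of 6 clones (exact p = 0.0312, adjusted p = 0.0375 over the 6 comparisons). Asah1 exceeded Frg1 by 0.15 ± 0.08 on svim in 6 of 6 clones (exact p = 0.0312, adjusted p = 0.0375). On cast these overlapping genes differed by 0.04 ± 0.09, with Asah1 above in 3 of 6 clones (exact p = 0.344, adjusted p = 0.344). The order was read from the same scores, and adjusted over all 10 exact tests made here the smallest p is 0.0521.

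The comparison of svim with cast asked whether the 2 copies of the chromosome were replicated at different times at these genes. Fat1 was earlier on svim than on cast, whichever deletion the clone carried, and the 3 genes on the left showed no difference that passed the test. The deleted positions were blank on svim in every clone, so strain and deletion cannot be told apart in svim minus cast. Svim minus cast at Fat1 was 1.69 and 1.24 in RexTrim D3 and D8, 0.85 and 0.98 in Rex1 D1 and E3, and 1.82 and 1.88 in Trim D9 and E9. Averaged over the 3 genotypes it was 1.41 ± 0.12 (SE; 95% interval 1.15 to 1.67), with svim above cast in 6 of 6 clones (limma on within-clone differences, adjusted p = 1.07e-05 by Benjamini-Hochberg over 953 genes). Allele differences were common on this chromosome: 18.7% of the genes passed this test, and svim was above cast in all 6 clones for 10.6% and below it for 9.23%. The Fat1 difference stood at percentile 98.6 of all genes, whose median was 0.01. Within each genotype Fat1 also passed, at 1.46 in RexTrim, 0.92 in Rex1 and 1.85 in Trim clones (SE 0.20 each, limma adjusted p = 0.00106, 0.0121 and 0.000496), where 8.71%, 11.5% and 11.4% of all genes passed. The RexTrim call was lost without D3 (adjusted p = 0.0682) and the Rex1 call without D1 or E3 (adjusted p = 0.126 and 0.198), each of which leaves 1 clone of that genotype.

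**Figure D2:**
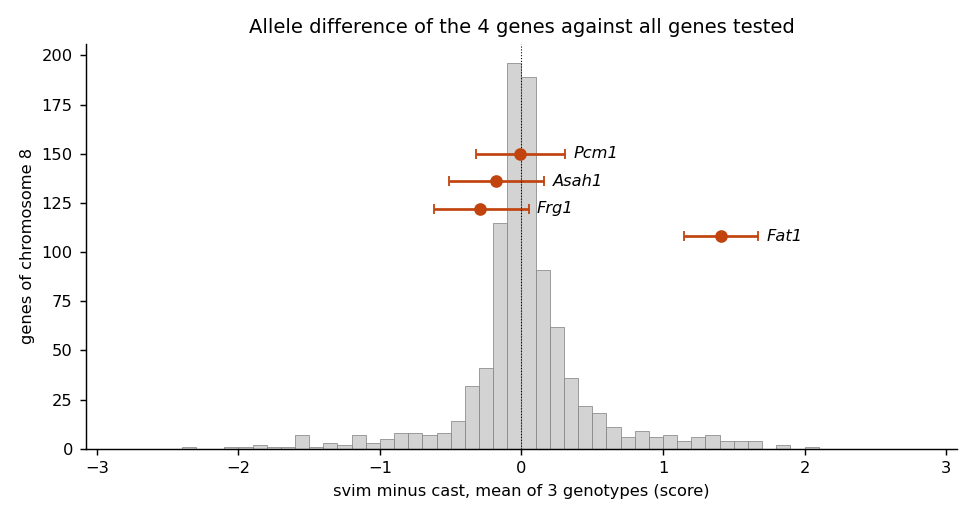
Distribution of svim minus cast, averaged over the 3 genotypes, for 953 genes of chromosome 8 (bars, number of genes on the y axis), with the 4 genes as points and their 95% intervals from limma; the height of a point has no meaning. Pcm1, Asah1 and Frg1 have intervals that include 0, and Fat1 lies at 1.41 with an interval of 1.15 to 1.67.

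Pcm1 had svim minus cast of -0.08 and -0.12 in RexTrim D3 and D8, 0.25 and 0.31 in Rex1 D1 and E3, and -0.70 and 0.30 in Trim D9 and E9. The sign differed among clones and between the Trim clones. Asah1 had -0.37 and -0.06 in RexTrim, 0.12 and 0.14 in Rex1, and -1.0 and 0.10 in Trim clones. Frg1 had -0.53 and -0.15 in RexTrim, 0.01 and 0.04 in Rex1, and -1.09 and -0.01 in Trim clones. The lowest value of each of the 3 genes was that of Trim D9. The mean over genotypes was -0.01 (95% interval -0.32 to 0.31) at Pcm1, -0.18 (-0.51 to 0.16) at Asah1 and -0.29 (-0.62 to 0.05) at Frg1, with limma adjusted p of 0.999, 0.594 and 0.259. At Frg1 the interval reaches a svim allele later by 0.62, so a difference of that size was not shown to be absent. The Frg1 difference passed only without Trim E9 (-0.47, adjusted p = 0.0129). None of the 3 genes passed within a genotype. Within clones, svim minus cast at Fat1 exceeded that at Pcm1 by 0.60 to 2.52, that at Asah1 by 0.73 to 2.82 and that at Frg1 by 0.84 to 2.91, in 6 of 6 clones each.

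The allele difference was not even along the genes. At Fat1 the svim score was flat, -0.43 at the left end and -0.39 at the right end (change 0.04 ± 0.33, SD, n = 6 clones, down in 3 and up in 3). The cast score fell along the gene, to -2.13 at the right end, against -1.40 at the left end (change -0.73 ± 0.40, down in 6 of 6). The mean difference between the alleles was largest 92.7 kb beyond the right end of Fat1, at position 45145000, where svim averaged -0.35 and cast -2.27. On the left, the svim score fell along each gene in 6 of 6 clones, and the change was -0.31 ± 0.13 in Pcm1, -0.24 ± 0.12 in Asah1 and -0.12 ± 0.07 in Frg1. On cast the changes were -0.25 ± 0.19, -0.07 ± 0.13 and -0.03 ± 0.07, with falls in 5, 4 and 3 of 6 clones.

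**Figure D3:**
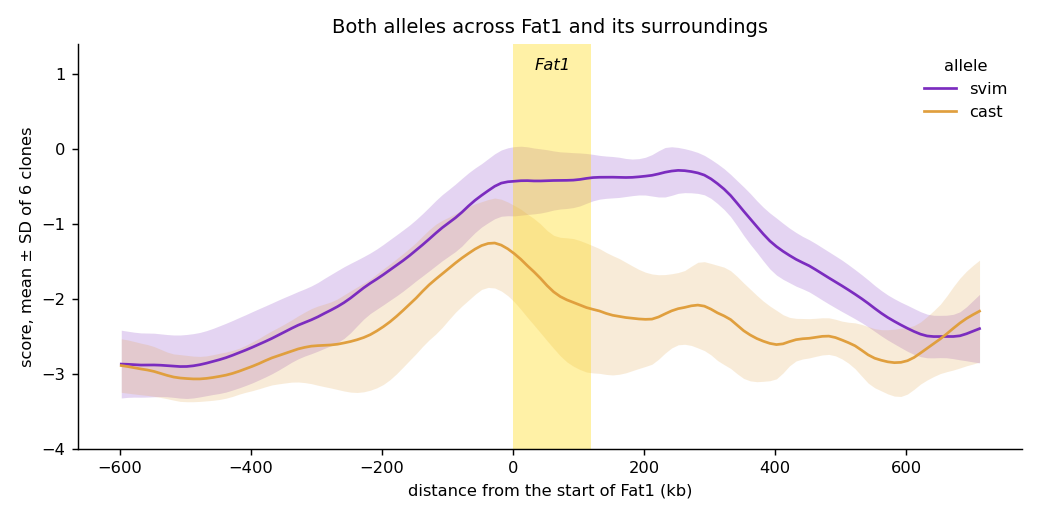
Score of the svim and cast alleles (y axis, mean with a band of ± SD over 6 clones) against distance from the start of Fat1 in kb (x axis), with the gene shaded. Svim stays near -0.4 across the gene, while cast falls to -2.13 at its right end.

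The 3 genes on the left sit at the right-hand shoulder of an early domain. Beyond Frg1 the score dropped and first went below 0 at 238 and 273 kb on svim and 248 and 348 kb on cast in RexTrim D3 and D8. In Rex1 D1 and E3 it did so at 128 and 158 kb on svim and 193 and 203 kb on cast, and in Trim D9 and E9 at 268 and 253 kb on svim and 338 and 383 kb on cast. The crossing lay nearer to Frg1 on svim in 6 of 6 clones (svim minus cast -65.8 ± 39.4 kb, SD), and it was nearer in both Rex1 clones than in the other 4 clones on each allele. These crossings were defined after the profiles had been seen and were not tested, and they move with the centre of a profile.

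In windows of 50 kb, averaged over genotypes, 4 stretches of allele difference lay between 40 and 47 Mb. Svim was later than cast from 41450001 to 41800000, starting 0.03 Mb beyond Frg1, at -0.64 on average over 7 windows. Svim was earlier from 44650001 to 45550000, which takes in all of Fat1, at 1.12 on average over 18 windows. The other 2 stretches were longer and held none of the 4 genes: svim was later from 42750001 to 43900000, over the deletions (-1.39, 22 windows), and from 45700001 to 47000000, right of Fat1 (-0.90, 26 windows). The stretch right of Fat1 reached the end of the searched interval at 47 Mb, so its full length is not given. Of all 2521 windows on the chromosome, 26.8% passed in this comparison.

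The genes around Fat1 and around Pcm1 give the setting. Of the 16 tested genes from Mtnr1a to Slc25a4, right of Fat1, 6 were earlier on svim and 9 were later (limma adjusted p under 0.05), with a median svim minus cast of -0.73 against 0.01 over all genes. The 6 lay next to Fat1 and the 9 beyond Sorbs2. A list of 10 of these genes leaves out 6 of the later ones, with 6 earlier, 3 later and a median of 0.98. The melatonin receptor gene Mtnr1a, next to Fat1, had the largest difference of the list (1.82 ± 0.12 SE, adjusted p = 6.11e-06), with -0.38 on svim and -2.20 on cast. The coagulation factor gene F11 (1.70), the kallikrein gene Klkb1 (1.61) and the innate immune receptor gene Tlr3 (0.83) were earlier on svim in 6 of 6 clones. Sorbs2, next in order, was at -0.19 and did not pass (adjusted p = 0.371). Beyond it the direction was opposite. Among the 9 genes there, Pdlim3 was at -0.90, Snx25 at -0.79 and the mitochondrial ADP/ATP carrier gene Slc25a4 at -1.0, each later on svim in 6 of 6 clones. Of 13 tested genes left of Pcm1, from Micu3 to Fgl1, none passed, and their differences ran from -0.40 to -0.02. The testis ADAM genes Adam20, Adam25 and Adam39 are among them (-0.40 to -0.30). Averaged over the genotypes, the 3 listed ADAM genes between the deletions and Fat1 passed and were later on svim. Adam26b was at -1.95, Adam26a at -1.50 and Adam34 at -1.11, each later on svim in 4 of 6 clones. Adam34l, beside them and not in the list, was also at -1.11 and passed (limma adjusted p = 0.000168). In the Trim clones alone, svim was earlier by 0.98 in the 50 kb window at 43550001 to 43600000, which takes in Adam26a (14.5% of windows passing).

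The comparison between deletions asked whether the timing of these genes, which lie outside the deleted stretches, differed with the deletion. The edited region, taken as the deletions with 100 kb on either side less the deleted positions (43076771 to 43432339, 64 positions), differed between them on svim. Its svim score was -2.60 and -2.94 in RexTrim, -0.61 and -0.83 in Rex1, and 1.61 and 1.58 in Trim clones. Its cast score was 1.38 and 0.69 in RexTrim, 1.77 and 2.14 in Rex1, and 0.85 and 1.96 in Trim clones. On svim the 3 deletions gave levels that did not overlap. On cast the Trim values overlapped those of both other groups, while both RexTrim values lay below both Rex1 values.

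**Figure D4:**
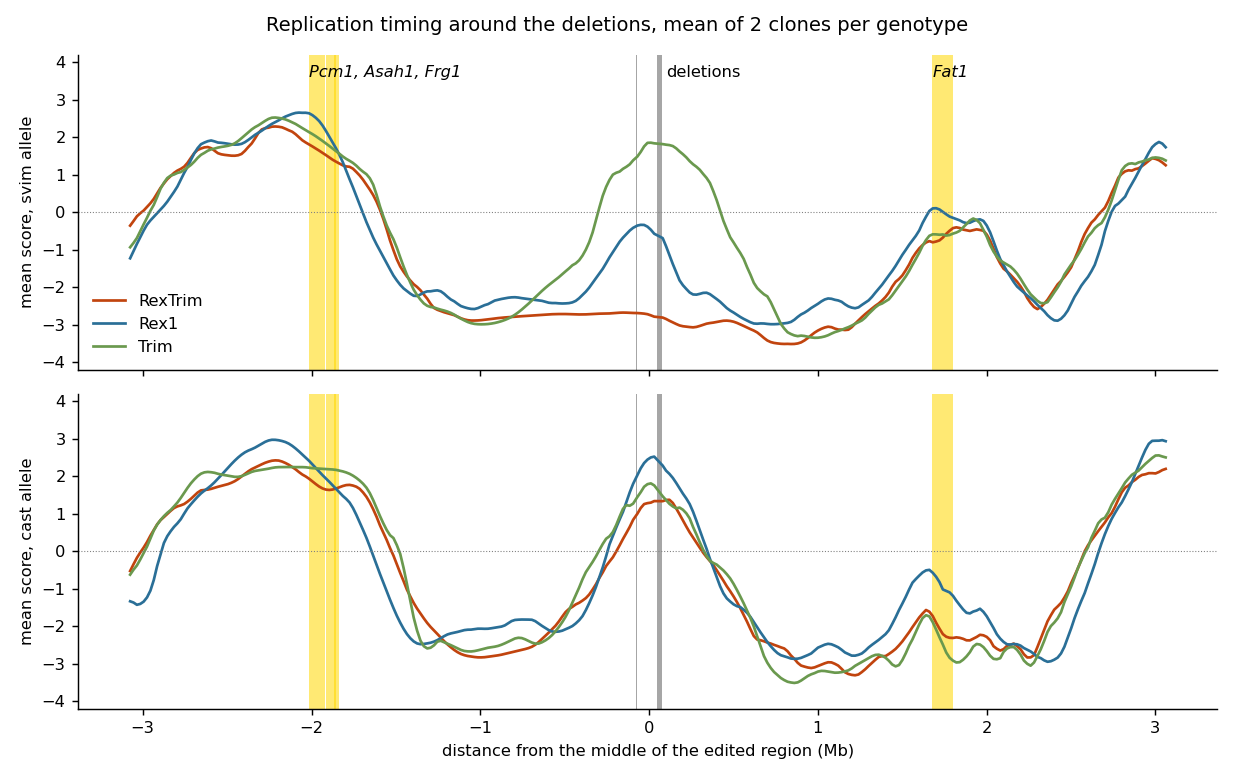
Mean score of 2 clones per genotype (y axis) against distance from the middle of the edited region in Mb (x axis), for the svim allele above and the cast allele below. Yellow bands mark the 4 genes and grey bands the deletions. On svim the 3 genotypes part at the deletions. The region is there at -2.60 and -2.94 in RexTrim and at 1.61 and 1.58 in Trim clones. At the 4 genes on svim, RexTrim minus Trim is between -0.32 and -0.06 and RexTrim minus Rex1 between -0.79 and -0.34. On cast, Rex1 minus Trim runs from -0.51 at Frg1 to 1.54 at Fat1.

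On svim, RexTrim minus Trim was -0.32 at Pcm1, -0.30 at Asah1, -0.28 at Frg1 and -0.06 at Fat1, and 0 of the 4 passed (limma adjusted p from 0.828 to 0.968, with 0.84% of 953 genes passing). The 95% intervals were -0.87 to 0.22 at Pcm1, -0.89 to 0.29 at Asah1, -0.86 to 0.31 at Frg1 and -0.64 to 0.53 at Fat1, and shifts within these bounds are not shown to be absent. In 50 kb windows, the 19 windows that passed of 2521 formed a run from 42850001 to 43850000. The run began 1.43 Mb right of Frg1 and ended 1.08 Mb left of Fat1, and RexTrim minus Trim averaged -3.49 there. For Rex1 minus Trim on svim, the run over the deletions reached from 42900001 to 43850000, and a shorter run lay at 41550001 to 41650000. The shorter run was 0.13 Mb right of Frg1, on the falling edge of the early domain, with Rex1 minus Trim at -1.30 on average. Of the 2521 windows, 5.04% passed for Rex1 minus Trim on svim. RexTrim minus Rex1 on svim had 1 passing window there, at 41600001 to 41650000 (1.13), with 6.47% of windows passing.

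In the comparisons with the Rex1 clones on svim many genes differed, and they passed in both directions. For RexTrim minus Rex1, 56 genes were higher and 231 lower, and for Rex1 minus Trim 45 were higher and 51 lower. The median of all 953 genes was -0.46 for RexTrim minus Rex1 on svim and 0.28 for Rex1 minus Trim on svim, against -0.14 for RexTrim minus Trim. For RexTrim minus Rex1 on svim this median was -1.14 after rescaling on the rest of the chromosome and -0.14 after quantile normalization. Pcm1 passed for RexTrim minus Rex1 on svim (-0.79 ± 0.25 SE, limma adjusted p = 0.0399), with a mean of 1.68 in RexTrim and 2.48 in Rex1 clones, but 30.1% of genes passed in this comparison. Relative to the median of all genes the Pcm1 difference was -0.34, and after quantile normalization it did not pass (-0.61, adjusted p = 0.138). After rescaling it was -1.48 (adjusted p = 0.000481), with 722 of the 953 genes passing. It was lost without RexTrim D3, RexTrim D8, Rex1 D1, Trim D9 or Trim E9 (adjusted p from 0.0526 to 0.175) and kept without Rex1 E3 (-0.98, adjusted p = 0.0209). Asah1, Frg1 and Fat1 did not pass for RexTrim minus Rex1 on svim (-0.51, -0.34 and -0.66, adjusted p = 0.150, 0.315 and 0.0737), but all 3 did after rescaling (-1.2, -1.04 and -1.39, adjusted p = 0.00367, 0.0111 and 0.000911). For Rex1 minus Trim on svim none of the 4 passed, at 0.47, 0.21, 0.06 and 0.60 from Pcm1 to Fat1 (adjusted p = 0.221, 0.582, 0.869 and 0.149), with 10.1% of genes passing. After rescaling Fat1 passed for Rex1 minus Trim too (1.03, adjusted p = 0.0321). After quantile normalization Fat1 passed in both, at -1.52 for RexTrim minus Rex1 (adjusted p = 0.00157) and 1.20 for Rex1 minus Trim (adjusted p = 0.00712). The medians of all genes were then -0.14 and 0.16, and the number of genes passing in that setting is not given here. Under the alternatives at most 722 genes passed for RexTrim minus Rex1 on svim and at most 285 for Rex1 minus Trim on svim.

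On cast, Fat1 was earlier in Rex1 than in Trim clones by 1.54 ± 0.30 (SE, limma adjusted p = 0.0443), with means of -0.91 in Rex1 and -2.45 in Trim clones. This comparison had 1.57% of genes passing, and relative to the median of all genes the difference was 1.18. Fat1 was lower in RexTrim than in Rex1 clones by a difference that did not pass (-1.21, adjusted p = 0.0976, 0% of genes passing by limma and 306 at an unadjusted p under 0.05). After rescaling it passed (-1.95, adjusted p = 0.00935), with 623 genes passing. RexTrim minus Trim was 0.33 at Fat1 (adjusted p = 0.964, 0% passing and 12 genes at an unadjusted p under 0.05). Both Rex1 clones were above the other 4 clones at Fat1 on each allele, as they were for 29.6% of all genes and for no other gene of the 4. The call for Rex1 minus Trim kept its direction under every alternative but was lost without RexTrim D3, RexTrim D8 or Rex1 E3 (adjusted p = 0.173, 0.173 and 0.0697) and under 3 other alternatives. Pcm1, Asah1 and Frg1 passed in no comparison on cast with the scores as deposited. After rescaling, Pcm1 passed for RexTrim minus Rex1 (-1.15, adjusted p = 0.0356, against -0.41 and 0.415 with the scores as deposited). Without Trim E9, Frg1 passed for Rex1 minus Trim (-1.11, adjusted p = 0.0326). Rex1 minus Trim on cast was -0.01, -0.38 and -0.51, where Trim D9 was the highest and Trim E9 among the lowest of the 6 clones.

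Whether the allele difference itself depended on the deletion was tested as the difference of svim minus cast between genotypes. None of the 4 genes passed. RexTrim minus Trim was 0.10, 0.24, 0.21 and -0.39 from Pcm1 to Fat1 (limma adjusted p from 0.924 to 0.973, with 0.84% of genes passing). RexTrim minus Rex1 was -0.38, -0.35, -0.36 and 0.55 (adjusted p from 0.908 to 0.951, 0% of genes passing and 45 at an unadjusted p under 0.05). Rex1 minus Trim was 0.48, 0.58, 0.57 and -0.93 (adjusted p = 0.797, 0.768, 0.768 and 0.312, 0.63% passing). At Fat1 this interval ran from -1.56 to -0.30, and the difference did not pass after adjustment over all genes.

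Set against the edited region in the same clones, svim minus cast in the region less that at Fat1 was -3.51 ± 1.70 (SD), from -5.67 to -1.06, and below 0 in 6 of 6 clones (exact p = 0.0312, adjusted p = 0.0938 over 4 genes). Less that at Pcm1 it was -2.09 ± 2.08, at Asah1 -1.92 ± 2.15 and at Frg1 -1.81 ± 2.14, below 0 in 5 of 6 clones each (exact p = 0.0938, adjusted p = 0.0938). The exception was Trim D9, whose region had svim minus cast of 0.76, against -0.37 in Trim E9. The RexTrim clones had -3.98 and -3.64 and the Rex1 clones -2.38 and -2.97 in the region. Averaged over the genotypes, the genes inside the region, Zfp42, Triml1 and Triml2, were later on svim, in 5 of 6 clones each. Their mean svim minus cast was -2.38, -1.84 and -2.02 (limma adjusted p of 6.11e-06, 4.17e-05 and 2.61e-05), opposite in sign to the mean at Fat1.

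Over the 12 profiles, the genes most like each of the 4 were sought among 904 genes at least 2 Mb from them and from the deletions, by the root mean square difference of scores. Scrg1 (0.31), Sap30 (0.31) and Nacc1 (0.32) were closest to Pcm1, and Insr and Galnt7 were closest to both Asah1 (0.33 and 0.35) and Frg1 (0.31 and 0.35). The nearest to Fat1 were Vat1l (0.55), Clec3a (0.66) and 4930467E23Rik (0.71), a looser match than those of the left genes. Their svim minus cast was 0.74, 0.85 and 0.87, which describes the match, since both alleles entered the choice.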

How the data were processed

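Repli-seq libraries of early and late S phase from 6 cas/129 mESC clones were used. The authors deposited a replication timing score per allele at positions 5 kb apart on chromosome 8 (mm10), and the file is named as interquartile-range normalized. Bowtie2, SAMtools and bedtools are named, per the submitters' processing notes; the sources used here do not give log base, smoothing or depth.

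Of 25880 positions, 25216 with a value in all 12 columns and outside both deletions were kept. A gene's score is the mean over its positions (RefSeq GRCm38.p6 protein-coding genes with at least 1 position; 90 of 1043 had none). Svim minus cast per clone, and each allele separately, were fitted with limma 3.58.1 (R 4.3.3) by genotype, with 2 clones each, so that p-values measure the spread between clones; p-values were adjusted by Benjamini-Hochberg over 953 genes, at a threshold of 0.05. Neighbouring genes share smoothed signal, and comparisons share clones. Exact sign-flip tests used scipy 1.17.1; 2 clones against 2 cannot give an exact p under 0.333. The fit was checked on simulated data. Alternatives were rescaling outside 38 to 48 Mb, quantile normalization, genes with 25 kb either side, medians, at least 3 positions, 50 kb windows (at least 5 positions), svim and cast unpaired, and leaving out each clone.

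Named genes were the 4 genes, their neighbours and controls, and for each of the 4 the 3 most alike. The genes and lists were chosen with earlier results of these data known. The limit to protein-coding genes and the window minimum were set after the file had been opened. Of 5 early control genes 4 had a score, with svim minus cast of -0.04 to -0.02; the 3 late controls, Csmd1, Sgcz and Dlc1, had 0.00 to 0.16. The chromosome 16 table was not used, since none of the 4 genes lies there.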

Additional observations from a re-analysis of the deposited data

Results flagged for a closer look

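Frg1 on the cast allele of Trim D9 scored 2.76, far above the other 5 clones, which lay between 1.42 and 1.89. Fat1 on the svim allele of Rex1 E3 scored 0.32, apart from the other 5 clones, which lay between -0.66 and -0.31. Each was the sample farthest from its group by Dixon's test at the 95% level, among 12 such groups of 6 clones, and chance alone gives such a result in about 1 of 20 groups. That rate is approximate, because each group pools the 3 genotypes and neighbouring genes share signal. At Fat1 on svim the next highest value, -0.31, came from the other Rex1 clone, D1.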

How the results depend on the processing

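Depth is unknown, so the precision rests on 6 clones. Svim minus cast at Fat1 kept its sign and passed in every alternative, from 1.21 to 1.48, and no alternative called that of Pcm1 or Asah1. The svim and cast values of a clone are paired because they come from the same libraries; without that replicate block the values were -0.01 at Pcm1, -0.18 at Asah1, -0.29 at Frg1 and 1.41 at Fat1, with no call changed. No paired analysis was possible between genotypes because clone names are not shared. The median svim minus cast right of Fat1 was 0.98 over the 10 listed neighbours and -0.73 over all 16 tested genes of that stretch, a comparison added after the data had been seen. Annotation coordinates equal those used, so that alternative was not run. The cause of each change below was not tested.

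Differences that did not pass in the first place changed sign as follows. With medians over positions, svim minus cast at Pcm1 was 0.01. After rescaling, Pcm1 had -0.01 for the change of svim minus cast between RexTrim and Trim and 0.55 for Rex1 minus Trim on cast, Asah1 had -0.06 for svim minus cast in Rex1 and 0.19 for Rex1 minus Trim on cast, and Frg1 had -0.17 for svim minus cast in Rex1 and, on cast, -0.72 for RexTrim minus Rex1 and 0.05 for Rex1 minus Trim.

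Leaving out 1 clone at a time, with a lone clone assumed to vary like the other genotypes, svim minus cast ranged from -0.17 to 0.16 at Pcm1, -0.36 to 0.01 at Asah1 and -0.47 to -0.11 at Frg1, and in Trim clones from -0.70 to 0.30 at Pcm1 and -1.0 to 0.10 at Asah1. Its change between RexTrim and Trim ranged from -0.39 to 0.60 at Pcm1, -0.32 to 0.79 at Asah1 and -0.33 to 0.75 at Frg1, and between Rex1 and Trim from -0.01 to 0.98 at Pcm1. On svim, Rex1 minus Trim ranged from -0.03 to 0.44 at Asah1 and -0.16 to 0.28 at Frg1. On cast, RexTrim minus Trim ranged from -1.04 to 0.19 at Pcm1, -1.17 to 0.10 at Asah1 and -1.09 to 0.11 at Frg1, RexTrim minus Rex1 from -0.41 to 0.09 at Asah1 and -0.21 to 0.26 at Frg1, and Rex1 minus Trim from -0.63 to 0.60 at Pcm1, -1.01 to 0.26 at Asah1 and -1.11 to 0.09 at Frg1. Of these sign changes, 14 came without Trim D9, 4 without Rex1 D1, 2 without Rex1 E3 and 2 without RexTrim D8. Without Trim E9, svim minus cast in the lone Trim clone passed at Asah1 (-1.0) and Frg1 (-1.09), as did Rex1 minus Trim on cast at Frg1 (-1.11); Fat1 passed for RexTrim minus Rex1 on svim without Rex1 D1 (-0.98) and on cast without Trim D9 or E9 (-1.21 each). The edited region less Fat1 ranged from -4.0 to -3.07, and with 5 clones no exact p can be under 0.0625.

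The counts of genes passing between genotypes on an allele were highest under rescaling in the comparisons with Rex1 clones, while svim minus cast within RexTrim or Rex1 clones was lowest without a clone of that genotype (2 without RexTrim D3, 16 without Rex1 E3). RexTrim minus Rex1 on svim called 287 genes and 12 to 722 under the alternatives, Rex1 minus Trim on svim 96 and 29 to 285, Rex1 minus Trim on cast 15 and 0 to 212, and RexTrim minus Rex1 on cast 0 and up to 623. RexTrim minus Trim called 8 and 4 to 10 on svim and 0 and up to 16 on cast. Svim minus cast called 83 and 2 to 133 in RexTrim, 110 and 16 to 158 in Rex1, 109 and 79 to 113 in Trim, and 178 and 125 to 217 over the genotypes. Between genotypes svim minus cast called 8 and 3 to 22 for RexTrim minus Trim, 6 and 1 to 23 for Rex1 minus Trim, and 0 and up to 3 for RexTrim minus Rex1.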
